A study of Mus musculus with 2 samples.

Results

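Interferon-stimulated genes are the genes that cells switch on when an interferon binds its receptor. The 43 genes described here were chosen by symbol from the 23924 gene symbols of the deposited table. They were divided by function into IFIT and IFITM proteins (6 genes), oligoadenylate synthetases (6), GTPases (9), nucleic acid sensors (6), transcription factors (3), the ISG15 system (2), the ligand Ifnb1 (1) and other effectors (10).

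RNA bound to antibody in nuclear extracts of RAW 264.7 cells, an established mouse macrophage line, was sequenced in 2 libraries. The first, called the nucleolin IP, used an antibody against nucleolin, an abundant RNA-binding protein of the nucleolus, and the second, the IgG IP, used rabbit IgG as the control. Both came from cells depleted of mRrp6, a ribonuclease of the nuclear exosome (gene Exosc10), that had received LPS at 80 ng/ml for 12 h, and the cytosolic fraction was left out of both. Cells that kept mRrp6 or received no LPS are not analysed here, so the values do not measure induction of these genes by LPS or a response to the depletion. The nucleolin IP was identified by its column name and by the design text, since its title speaks of nucleoplasmic RNA without naming the antibody. The study asked which transcripts nucleolin targets.

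In macrophages LPS acts through TLR4, and one branch of its signalling, through the adaptor encoded by Ticam1, activates Irf3 and the transcription of interferon beta. Secreted interferon binds the receptor formed by the products of Ifnar1 and Ifnar2, and the kinases Jak1 and Tyk2 then phosphorylate Stat2. With Irf9 it acts in a complex that binds the interferon-stimulated response element, a short repeat of GAAA units, in the promoters of its targets. Those targets encode sensors of viral RNA and DNA, proteins that block viral entry, translation or release, and regulators of the response itself.

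Of the 43 genes, 16 (37.2%) were listed at 0.1 FPKM or more in at least 1 library, against 13.4% of all gene symbols. FPKM is a fragment count divided by the length of the transcript and by the size of the library. The nucleolin IP listed 14 of them (32.6%) and the IgG IP 6 (14.0%), against 7.23% and 8.40% of all gene symbols, a background that includes genes macrophages do not use. By library, 10 were listed in the nucleolin IP alone, 4 in both and 2 in the IgG IP alone, and the remaining 27 were at 0 in both. The 10 genes make up 62.5% of the 16, where 37.2% of the 3200 genes listed anywhere were in the nucleolin IP alone. The genes found in the IgG IP alone make up 12.5%, against 46.0% of all listed genes. This background of listed genes, used again below, also includes genes of other cell types that were listed in the IgG IP alone. Of the 9 macrophage markers in the table, 44.4% were in the nucleolin IP alone and 0 in the IgG IP alone. With 1 library per group these shares have no replicate check, and no test was made.

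**Figure D1:**
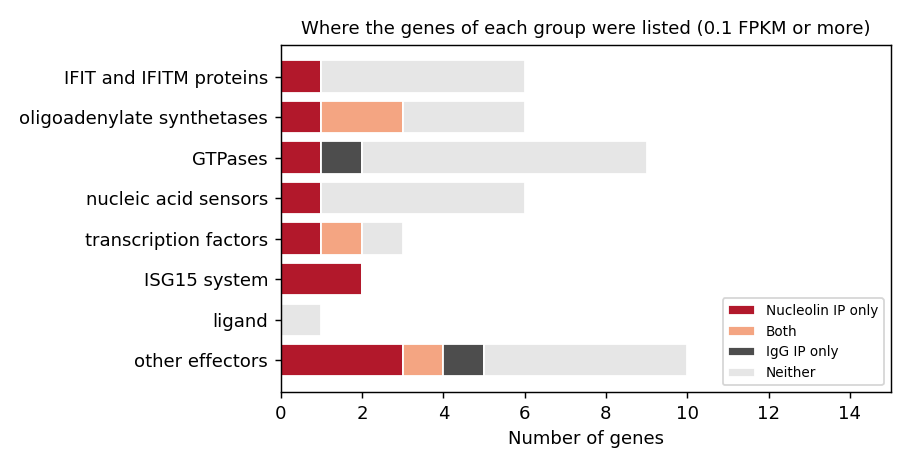
Number of genes in each functional group that were listed at 0.1 FPKM or more in the nucleolin IP only, in both libraries, in the IgG IP only or in neither. Both genes of the ISG15 system were in the nucleolin IP only, while 7 of 9 GTPase genes and 5 of 6 genes for IFIT and IFITM proteins were in neither, as were 86.6% of all gene symbols.

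Depth was very low, which sets how each value can be read. Among 246 low, 1-row genes with values in both libraries, 157 (63.8%) lay at a nucleolin-to-IgG ratio of 0.393, the ratio that equal read numbers give. Such genes, most simply at 1 read in each library, had a median of 6.76 FPKM in the nucleolin IP and 17.2 FPKM in the IgG IP. A value of a few FPKM in the nucleolin IP is thus near the worth of 1 read, and a gene with equal reads appears lower there. By the definition of FPKM above, a lower worth of 1 read goes with a larger library. The libraries also differed in markers of other cells. Of 6 epithelial markers none was listed in the nucleolin IP and 5 were in the IgG IP (20.1 to 185 FPKM, 448 FPKM in sum), and of 14 gastric and digestive markers none was in the nucleolin IP and 13 were in the IgG IP (46.8 to 5078 FPKM, 21317 FPKM in sum). Of 6 fibroblast and smooth muscle markers 4 were in the IgG IP alone (15.8 to 35.7 FPKM), and none of 6 lymphocyte markers was listed in either. Of 4 markers of plasmacytoid dendritic cells, which make much interferon, Bst2 alone was listed, and it is one of the 43 genes. All 9 macrophage markers found in the table were listed in the nucleolin IP (7.39 to 200 FPKM, 521 FPKM in sum) and 5 of them in the IgG IP (38.5 to 138 FPKM, 459 FPKM in sum). Both libraries are described as coming from a macrophage line, yet the gastric and digestive markers held 11.2% of the total FPKM of the IgG IP. The source of the epithelial, gastric, digestive, fibroblast and smooth muscle RNA is not given in the sources used here. Its part in the values below was not tested.

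The highest FPKM values belonged to Isg15 and Ifitm3, both from the nucleolin IP. How many reads these 2 values stand for is unknown, since 1 read gives a higher FPKM in a shorter transcript. Bst2, near the ratio of equal reads, was at 30.9 FPKM in the nucleolin IP. Isg15, a ubiquitin-like protein that is attached to other proteins during the antiviral response, was at 126 FPKM in the nucleolin IP and at 0 in the IgG IP. It ranked 39th of 1729 genes listed in the nucleolin IP. Usp18, the protease that removes ISG15 from its targets and also restrains signalling at the interferon receptor, was at 10.7 FPKM in the nucleolin IP and at 0 in the IgG IP. Both genes were therefore on the nucleolin side, at FPKM values that differed widely, without known read numbers. On mm10, Isg15 lies on chromosome 4 from 156199424 to 156200818 and Usp18 on chromosome 6 from 121245906 to 121270917.

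Among the IFIT and IFITM genes, Ifitm3 alone was listed. Its product sits in endosomal membranes and blocks the entry of viruses. It was at 79.4 FPKM in the nucleolin IP, rank 68 there, and at 0 in the IgG IP. Its neighbours Ifitm1 and Ifitm2, which lie within the same stretch of chromosome 7 from 140954837 to 141010744, were at 0 in both libraries. So were Ifit1, Ifit2 and Ifit3, whose products bind viral RNA and which stand side by side on chromosome 19 from 34550550 to 34650009.

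The oligoadenylate synthetases make the short 2'-5' linked RNAs that activate RNase L, and 3 of their 6 genes were listed. Oas1a was at 14.9 FPKM in the nucleolin IP and 37.6 FPKM in the IgG IP, a ratio of 0.396. Oas1g, its neighbour, was at 4.63 FPKM in the nucleolin IP and 11.7 FPKM in the IgG IP, also a ratio of 0.396. Both ratios are those of equal read numbers (1.01 times the ratio for equal reads in each), and the 95% interval of each ratio for 1 read in each library runs from 0.00501 to 30.9. The interval is exact (Clopper-Pearson) and covers counting error only. It is for the smallest fitting pair, and more reads at the same ratio would give a narrower interval. Oas1a and Oas1g are close paralogs, and how reads shared between them were assigned is not given in the sources used here, so their separate values are uncertain. Oasl1, a synthetase-like protein without that enzyme activity that in mice represses translation of Irf7, was at 17.4 FPKM in the nucleolin IP and at 0 in the IgG IP. Oas2, Oas3 and Oasl2 were at 0 in both.

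The GTPase genes were the largest functional group after the other effectors, and 2 of 9 were listed, 1 in each library. Irgm1, an immunity-related GTPase that acts on vacuoles holding microbes, was at 8.24 FPKM in the nucleolin IP and at 0 in the IgG IP. Igtp, of the same family, showed the opposite, at 0 in the nucleolin IP and 23.2 FPKM in the IgG IP. Both values are within reach of 1 or a few reads. Ifi47, the third of that family here, was at 0 in both libraries. The guanylate-binding proteins Gbp2, Gbp3, Gbp5 and Gbp7, which lie in 1 run on chromosome 3 from 142496934 to 142638008, were at 0 in both, as were Mx1 and Mx2, dynamin-like antiviral GTPases that the mouse reference annotation gives as transcribed pseudogenes.

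Of the nucleic acid sensors only Ddx58, which encodes RIG-I, a helicase that detects viral RNA ends, was listed. It was at 3.49 FPKM in the nucleolin IP and at 0 in the IgG IP. The level was low: 85.8% of the genes listed in the nucleolin IP were as high or higher. The related helicase genes Ifih1 (MDA5) and Dhx58 (LGP2), Zbp1, a sensor of Z-form nucleic acids, and Ifi204 and Ifi205, of the family of interferon-inducible DNA-binding proteins, were at 0 in both libraries.

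Among the transcription factors, Stat2 was at 15.8 FPKM in the nucleolin IP and 10.1 FPKM in the IgG IP. The ratio of 1.57 is 3.98 times that of equal reads, and the smallest pair that matches it is 4 reads to 1. The 95% interval for that pair runs from 0.156 to 77.5, so a difference was not detectable at that read number. Stat2 was the 1 gene of the 4 in both libraries that was higher in the nucleolin IP. Irf7, the factor that amplifies interferon transcription, was at 10.7 FPKM in the nucleolin IP, the sum of transcript rows at 5.81, 4.89 and 0.0277 FPKM, and at 0 in the IgG IP. Irf1 was at 0 in both libraries, as was Ifnb1, the gene for interferon beta itself.

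The other effectors included the highest IgG value of the set. Bst2 (tetherin, which holds budding virus at the cell surface) was at 30.9 FPKM in the nucleolin IP and 75.0 FPKM in the IgG IP, a ratio of 0.412 and 1.05 times that of equal reads. Its IgG value lay above the range used for matching read numbers, so it has no interval. Ifi44 was at 12.3 FPKM, Trim30a, a regulator of Toll-like receptor signalling in mice, at 6.97 FPKM and Parp14, an ADP-ribosyltransferase, at 2.34 FPKM in the nucleolin IP, all at 0 in the IgG IP. Xaf1, which binds the apoptosis inhibitor XIAP, was at 0 in the nucleolin IP and 20.0 FPKM in the IgG IP. Isg20, Rsad2 (viperin), Cmpk2, Phf11b and Phf11d were at 0 in both libraries.

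**Figure D2:**
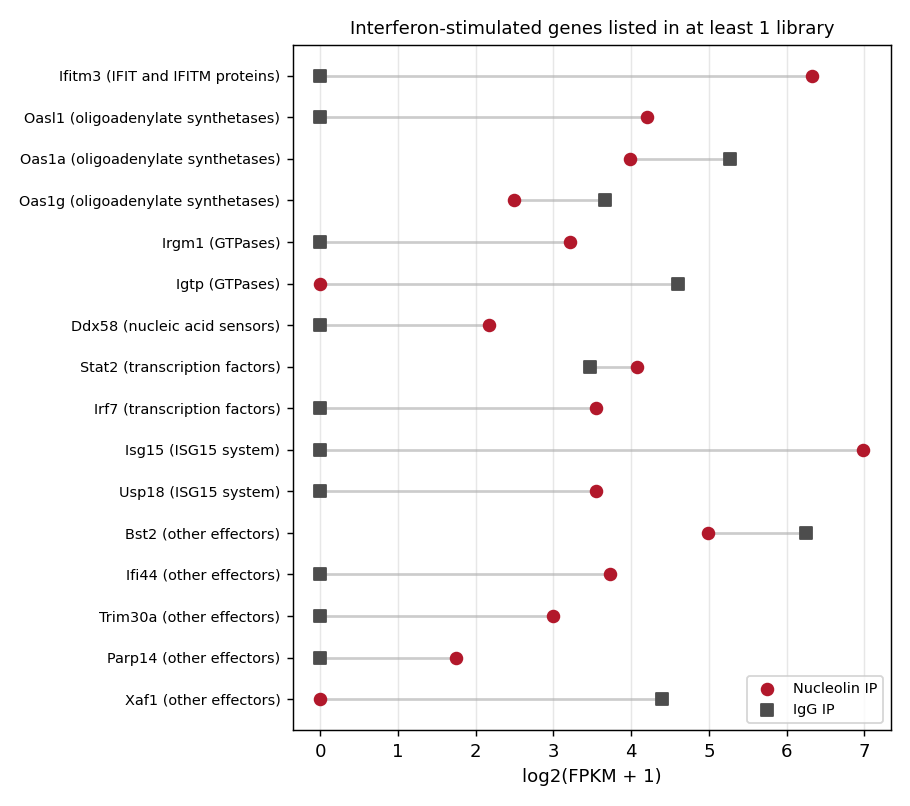
Level of each of the 16 listed genes as log2(FPKM + 1), with the nucleolin IP as red circles and the IgG IP as grey squares, 1 library each. Isg15 (126 FPKM) and Ifitm3 (79.4 FPKM) stand at the right in the nucleolin IP and at 0 in the IgG IP, and Oas1a, Oas1g, Bst2, Igtp and Xaf1 are higher in the IgG IP.

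Set against all genes, the 16 were compared as log2((nucleolin FPKM + 1) / (IgG FPKM + 1)), and a difference of 2-fold or more on this scale was counted. By this measure 10 of 16 (62.5%) were at least 2-fold higher with the nucleolin antibody, against 37.8% of the 3194 genes that reached 1 FPKM in at least 1 library. At least 2-fold lower were 5 of 16 (31.2%), against 56.7% of those genes. Of these 5, Oas1a, Oas1g and Bst2 sit at or near the ratio of equal reads, and 2 remained lower with 1 read worth the same. The 10 higher genes are the 10 listed at 0 in the IgG IP, so the count says the same as the listing. The median log2 ratio was 2.58, against -1.27 over all genes compared, and ran from 1.01 to 5.65 with other pseudocounts. Over the 4 genes in both libraries it was -1.21, close to the -1.19 of all 538 genes in both and to the -1.23 of genes at equal reads. Of the 9 macrophage markers, 44.4% were at least 2-fold higher and 33.3% lower, with a median log2 ratio of 0.32.

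Summed over the 43 genes, the level was 344 FPKM in the nucleolin IP and 178 FPKM in the IgG IP, a log2 ratio of 0.95. Its sign as deposited rested on 2 genes: without Isg15 and Ifitm3, a choice made after seeing the values, the sums were 138 FPKM in the nucleolin IP and 178 FPKM in the IgG IP, a log2 ratio of -0.36. This turn holds for FPKM as deposited. With 1 read worth the same in both libraries, the log2 ratio was 2.30 with all 43 genes and 0.99 without those 2. That scaling compares read numbers and undoes the division by library size. It therefore favours the larger library, by the worth of 1 read the nucleolin IP, and shows no enrichment by itself. As a share of the library's total FPKM, the 43 genes held 0.0949% of the nucleolin IP and 0.0933% of the IgG IP. The total was 361896 FPKM in the nucleolin IP, of which the microRNA gene Mir6236 alone held 232751, and 190321 FPKM in the IgG IP, where Mir6236 was at 0. The 10 genes listed in the nucleolin IP alone had a median of 10.7 FPKM there, against 7.29 FPKM over the 1191 such genes of the whole table. At 1 or a few reads FPKM depends on transcript length as well, so these medians do not show more RNA of the 10 genes.

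**Figure D3:**
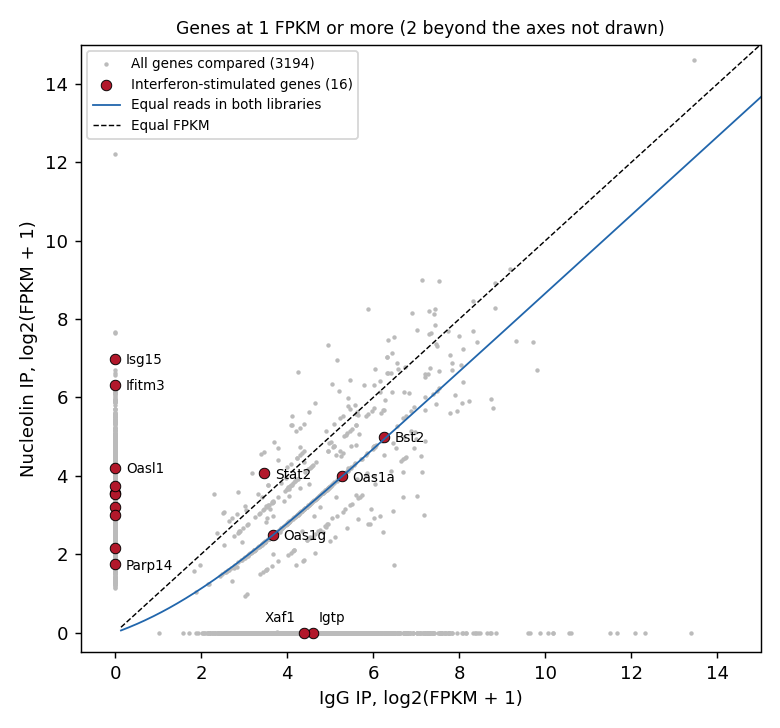
Nucleolin against IgG level, both as log2(FPKM + 1), for the 3194 genes compared (grey) and the 16 listed interferon-stimulated genes (red). Oas1a, Oas1g and Bst2 lie on or next to the blue line of equal reads, Stat2 above it, 10 genes at 0 on the IgG axis, and Xaf1 and Igtp at 0 on the nucleolin axis.

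The interferon-stimulated response element was looked for in the promoters, since it is the sequence that the complex of Stat2 and Irf9 binds. Promoter windows of 250 bases before and 50 bases after the annotated start (RefSeq, GRCm38.p6, the same assembly as mm10) were found for 35 of the 43 genes. The motif, 2 GAAA units with any 2 bases between them (GAAA, NN, GAAA), on either strand and with overlapping matches counted, was in 22 of these 35 (62.9%) and in 3.99% of all 27025 genes with such a window. It was in 10 of 14 listed genes with a window and in 12 of 21 genes at 0 in both libraries. A match is a description of the letters and shows no binding, and the libraries measured RNA and not promoter activity. For the listed genes, stretches whose matches lie before the start of their window are printed, 5′ to 3′ on the strand of the gene, with the motif letters in capitals:
Isg15, chr4:156200871-156200900, minus strand: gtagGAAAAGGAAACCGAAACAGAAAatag
Irgm1, chr11:48871431-48871454, minus strand: tcaaGAAATAGAAACCGAAActga
Trim30a, chr7:104465216-104465233, minus strand: ttagTTTCTTTTTCtcag
Oas1a, chr5:120907526-120907549, minus strand: tcggGAAATGGAAACTGAAAatct
Oas1g, chr5:120887614-120887635, minus strand: tcggGAAATGGAAACTGAAAat
Bst2, chr8:71537583-71537606, minus strand: ccagGAAAATGAAACTGAAAggct
Stat2, chr10:128270272-128270289, plus strand: ctggTTTCAGTTTCcttt
Igtp, chr11:58199518-58199535, plus strand: aactGAAACTGAAAgctg

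In the Isg15 promoter 3 overlapping matches began at positions -78, -72 and -66 from the start and formed 1 unbroken run of capitals. Irgm1, Oas1a, Oas1g and Bst2 each had 2 overlapping matches, and the capitals of Oas1a and Oas1g are the same letters. The annotated span of Oas1a begins upstream of the start its window uses, so 19 of its 24 printed bases lie inside that span. In Stat2 and Trim30a the printed match was on the opposite strand and reads as TTTC units. Ifitm3 and Ddx58 had matches that began at position 3 of the transcribed part, and so did Trim30a in a window other than the printed one. For Oasl1, Irf7, Ifi44 and Xaf1 these letters were not in the window.

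**Figure D4:**
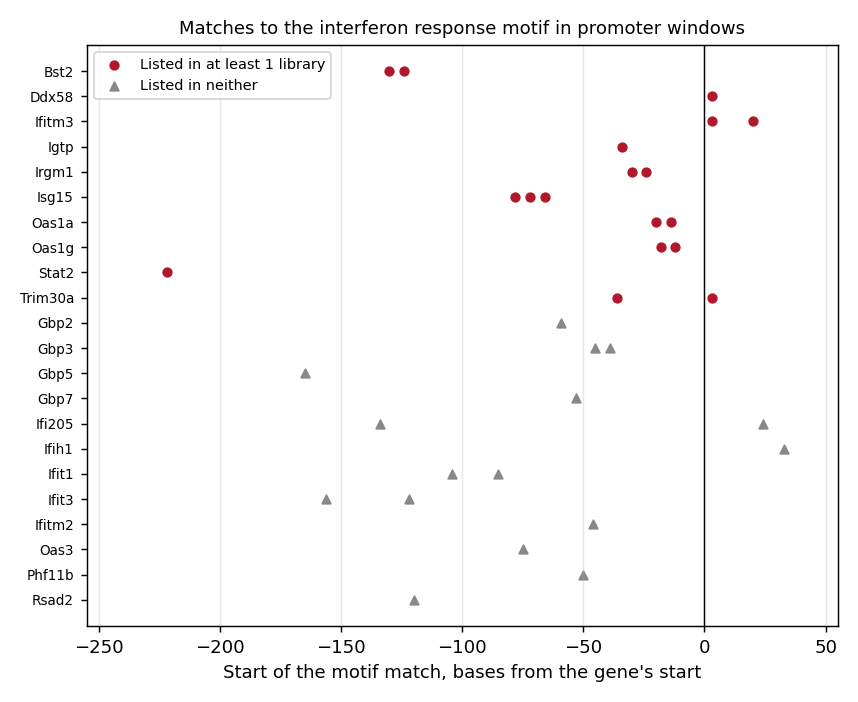
Start of each match to the motif, in bases from the gene's start, for the 22 genes with a match in a promoter window, with listed genes as red circles and genes at 0 in both libraries as grey triangles. Most matches of both kinds of gene lie before the start, and the 3 matches of Isg15 stand next to each other.

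The place of the genes in the genome was also set against their listing. When genes less than 100 kb apart were joined, 22 of the 43 fell into 8 runs of neighbours, and 4 of these 22 were listed in at least 1 library, a share near the 13.4% of all gene symbols. These were Ifitm3, Oas1a, Oas1g and Oasl1. Of the 21 genes that stood alone, 12 were listed. The difference was not tested.

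Genes of the pathway itself, from a list of 32 for TLR4 and interferon signalling, were listed at a share like that of the 43. Of these, 12 (37.5%) were listed, against 13.4% of all gene symbols. By library, 8 were in the nucleolin IP alone (66.7%, against 37.2% of all listed genes), 3 in the IgG IP alone (25.0%, against 46.0%) and 1 in both. With the nucleolin antibody 8 of 12 (66.7%) were at least 2-fold higher and 3 (25.0%) lower, against 37.8% and 56.7% of all genes compared. The median log2 ratio was 2.59. The sum was 276 FPKM in the nucleolin IP and 353 FPKM in the IgG IP, a log2 ratio of -0.35. That ratio was 0.99 with 1 read worth the same in both libraries, which leaves library size out. Cd14, the LPS co-receptor, was at 207 FPKM in the nucleolin IP and 319 FPKM in the IgG IP. Irf5, a factor of inflammatory transcription, was at 16.8 FPKM in the nucleolin IP and at 0 in the IgG IP. Ube2l6, the conjugating enzyme for ISG15, was at 14.2 FPKM in the nucleolin IP and at 0 in the IgG IP. Irf3 was at 9.14 FPKM in the nucleolin IP and at 0 in the IgG IP. On the other side, Irf8, a factor of the myeloid lineage, was at 0 in the nucleolin IP and 16.0 FPKM in the IgG IP, and Stat3 and Jak1 were likewise at 0 in the nucleolin IP, with 9.97 and 8.29 FPKM in the IgG IP. The receptor genes Ifnar1 and Ifnar2, the kinase gene Tyk2 and Irf9 were at 0 in both libraries.

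A wider list of 93 interferon-stimulated genes outside the 43, of which 90 were in the table, was set beside them. Of these, 26 (28.9%) were listed, against 13.4% of all gene symbols. By library, 14 were in the nucleolin IP alone (53.8%, against 37.2% of all listed genes), 7 in the IgG IP alone (26.9%, against 46.0%) and 5 in both. The count at least 2-fold higher was 14 (53.8%) and lower 10 (38.5%), against 37.8% and 56.7% of all genes compared, with a median log2 ratio of 1.66 against -1.27. The sum was 299 FPKM in the nucleolin IP and 479 FPKM in the IgG IP, a log2 ratio of -0.68. That ratio was 0.67 with 1 read worth the same, which again leaves library size out. Ccl5, a T cell-attracting chemokine, was at 55.2 FPKM, Lgals3bp at 42.5 FPKM, Psme2, a subunit of the proteasome activator PA28, at 29.2 FPKM and Psmb9, an immunoproteasome subunit, at 28.7 FPKM in the nucleolin IP, all at 0 in the IgG IP. Psme1, the partner subunit of Psme2, was at 0 in the nucleolin IP and 164 FPKM in the IgG IP. Ly6e was at 10.1 FPKM in the nucleolin IP and 102 FPKM in the IgG IP. Cxcl10 was at 19.0 FPKM in the nucleolin IP and 47.1 FPKM in the IgG IP, near the ratio of equal reads, and Lgals9 at 0 in the nucleolin IP and 32.7 FPKM in the IgG IP.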

How the data were processed

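RNA immunoprecipitated from LPS-stimulated, mRrp6-depleted RAW 264.7 cells was sequenced in 1 nucleolin and 1 IgG library (IP, immunoprecipitation). The authors deposited FPKM values for 33529 transcript rows, 1 column per library, per the file headers. FastQC 0.10.0, Trimmomatic 0.32 and the mm10 build were used, per the submitters' processing notes, with aligner, quantifier, strand use and handling of multiply aligned reads not given in the sources used here. Of these rows, 56 had no symbol and were left out, and the others were summed per symbol, since 13 of the 43 genes have more than 1 row. Total read numbers are unknown.

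Computed from these values (scipy 1.17.1, numpy 2.4.6 and pandas 2.3.3 under Python 3.11.15) were the log2 ratio with a pseudocount of 1 FPKM, for genes at 1 FPKM or more in at least 1 library, and read-number pairs. The pseudocount understates the change of low genes. The most frequent ratio among genes with 1 row, below 30 FPKM in the nucleolin and 60 FPKM in the IgG IP, was taken as that of equal reads, and each gene's ratio was assigned the smallest fitting pair of at most 8 reads within 0.05 on the log2 scale. The steps were run on simulated data, with the 2-fold count at high depth and the read pairs from read numbers without counting error. These simulations do not show how the steps behave at the depth of the 2 libraries. With 1 library per group no p-value was computed. All 43 genes are accounted for, each gene at 1 FPKM or more in a library is named with both values, and of the pathway lists at most the 4 highest genes of each library are named, with genes at 0 named for their role in the pathway. The genes and lists were chosen with earlier results of these data known. All 43 gene identifiers matched the RefSeq gene table of GRCm38.p6, which gave positions and promoters. The alternatives were other pseudocounts, minimums, scalings and ways to combine rows. Exosc10 had 6.42 FPKM in the nucleolin IP and was at 0 in the IgG IP. Ncl, the gene for nucleolin, had 6.14 FPKM in the nucleolin IP and 5.25 FPKM in the IgG IP. Neither RNA level can check which library used which antibody. Both libraries come from depleted cells, so Exosc10 does not check the depletion.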

Additional observations from a re-analysis of the deposited data

How the results depend on the processing

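The count of genes at least 2-fold higher in the nucleolin IP (10) fell to 6 when genes had to reach 10 FPKM, which left 12 genes, and was 8 to 11 under the other alternatives. The count at least 2-fold lower (5) was 2 when log2 ratios were centred on the median of all genes, when 1 read was given the same worth in both libraries (nucleolin values multiplied by 2.54) and when both libraries were scaled to the same sum without Rn45s, Lars2, Mir6236 and Mir142b, and 3 among genes with 1 transcript row. Oas1a, Oas1g and Bst2 are the genes that left that count under the 3 scalings. Of these scalings, the one with equal read worth compares read numbers without the division by library size. The median log2 ratio (2.58) was 5.65 with a pseudocount of 0.1 FPKM and 1.01 with one of 5 FPKM, 2.07 at a minimum of 10 FPKM, 2.47 with the highest row per symbol, 2.99 with 1-row genes, 1.95 without Isg15 and Ifitm3 (added after seeing the data), and 0.00 with no filter, where the 27 genes at 0 in both count as unchanged. It was 3.85 centred, 3.76 at equal read worth and 3.85 at the common sum. The log2 ratio of the summed level (0.95) was 2.22 centred, 2.30 at equal read worth, 2.39 at the common sum, 0.93 with the highest row, 1.17 with 1-row genes, and turned to -0.36 without Isg15 and Ifitm3, which was 0.99 when 1 read was also given the same worth (a pair of choices added after seeing the data). No paired analysis was possible because each group has 1 library. Depth limits all of these: levels near those of low genes at the ratio of equal reads, most simply 1 read in each library (medians of 6.76 FPKM in the nucleolin IP and 17.2 FPKM in the IgG IP) cannot be told from 1 or a few reads.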
